A study of Mus musculus with 42 samples.

Results

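The genes described here are 37 genes of ribosome assembly in the nucleolus together with Myc, 38 of the 54353 genes that the bulk RNA-Seq count tables share. They were chosen by name, with earlier results of these data known. By role the list held Myc, 3 subunits of RNA polymerase I, 3 box C/D proteins, 4 box H/ACA proteins, 6 abundant nucleolar proteins, 12 small subunit factors and 9 large subunit factors. All 38 had a row in every bulk count table, and 34 had a column in the single-cell matrix. The cells were tissue-resident natural killer (trNK) cells of the mouse uterus, from wild-type C57BL/6 females that the study's methods give as 8 to 12 weeks old.

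A ribosome is built in the nucleolus, where RNA polymerase I transcribes the long precursor of the ribosomal RNAs. Box C/D particles methylate that precursor, box H/ACA particles convert selected uridines to pseudouridine, and separate sets of factors fold and cut it into the small and the large subunit. Myc is a transcription factor that binds E-boxes and is known for driving genes of this process when lymphocytes enlarge and divide.

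Each of the 17 bulk groups had 2 libraries, 34 in all, and the labels do not say that these came from separate mice or cultures, so that the p-values below measure only the spread between the libraries deposited. In the gestation experiment, live CD45+ trNK cells (NK1.1+ NKp46+ CD49a+ CXCR6-) were sorted from virgin uterus and at gestation days 6.5 and 8.5 (gd6.5, gd8.5). In the subset experiment, gd8.5 trNK cells were split by surface CD55 and 4-1BB into a population low for both (trNK-V), an intermediate one (trNK-D) and a high one (trNK-T). In the inhibitor experiment, live NK1.1+ cells from culture were taken after 3 days with no IL-21, with 20 ng/mL IL-21, or with IL-21 and 1 µM Stattic, an inhibitor of STAT3, the transcription factor that IL-21 receptors activate. In the time course, gd6.5 trNK cells were kept in IL-15 with or without 20 ng/mL IL-21 and taken at 0, 6, 24 and 72 h. The paper gives the starting cells of both cultures as trNK-V cells sorted at gd6.5. Its culture medium held IL-15 in every group, those without IL-21 included. Cultured cells had left the uterus, and the sorts are defined by surface markers only. In bulk samples, fewer cells of a type and less RNA per cell cannot be told apart.

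Libraries held 11862089 to 29537298 counts in the gestation, subset and inhibitor experiments and 28541369 to 66468883 in the time course. Levels below are RPKM, counts scaled for gene length and for the library's total, so that they compare between genes. The NK cell genes Ncr1 and Klrb1c, which encode NKp46 and NK1.1, were present in all 34 libraries, at 46.8 to 1030 RPKM (median 725) and at 95.5 to 577 (median 233). Eomes, a transcription factor of NK cells, was at 7.19 to 67.8 RPKM. Itga1, which encodes CD49a, was at 1.64 to 30.6 RPKM. S1pr5, a receptor of circulating NK cells, was listed at 0 in 23 libraries and reached 4.87 RPKM at most. Against the CXCR6- gate, Cxcr6 RNA was present in 31 of the 34 libraries, with a median of 14.9 RPKM, and it was highest in a 72 h library with IL-21 (106.4 RPKM). In the sorted gestation and subset libraries Cxcr6 ran from 0 to 33.8 RPKM, the highest in trNK-V replicate 2. Its part in the results was not tested. Several libraries stood apart from their partner or from the other groups. The summed RPKM of the terminal trNK markers (Tnfrsf9, Cd55, Klrg1, Scin, Epas1, Ctsg and Spp1) was 811.4 in virgin replicate 1 and 7674 in virgin replicate 2. The 72 h libraries without IL-21 had 8.44% and 11.8% of their counts in mitochondrial genes, and in the time course the lowest share was 1.904%. Mitochondrial shares were 0.861 to 1.891% in the other experiments.

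The E-box CACGTG, the core sequence to which Myc binds with its partner Max, was looked for in the RefSeq promoter windows of the list on the GRCm38.p6 build, 250 bases before to 50 after each annotated start. Of the 38 genes, 32 had a window, and 8 of these, or 25%, held the motif. It was present in 7.15% of all 32851 windows, in 8.09% of all genes with a window, and in 12.7% of the 3394 such genes tested in the gestation experiment. The sequence reads the same on both strands, and no other motif was searched. The 8 stretches are shown because they are the places where the list carries the letters associated with Myc. Each is 30 bases on the gene's own strand, 5′ to 3′, with the motif in capitals.
Nop2: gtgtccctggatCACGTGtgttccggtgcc
Utp4: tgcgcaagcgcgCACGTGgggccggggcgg
Ltv1: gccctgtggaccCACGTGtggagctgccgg
Utp20: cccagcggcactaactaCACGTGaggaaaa
Pes1: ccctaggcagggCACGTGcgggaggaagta
Mybbp1a: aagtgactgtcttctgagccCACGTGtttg
Tsr1: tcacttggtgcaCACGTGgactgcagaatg
Wdr43: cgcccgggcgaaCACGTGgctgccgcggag
The Nop2 stretch lay at chr6:125131811-125131840 on the plus strand, upstream of the start. The motifs of the others lay in annotated 5′ untranslated exons, and the Pes1 stretch begins upstream of the gene start. Those on the plus strand were Utp4 at chr8:106893643-106893672, Pes1 at chr11:3963965-3963994, Mybbp1a at chr11:72441347-72441376, Tsr1 at chr11:74898092-74898121 and Wdr43 at chr17:71616220-71616249. Those on the minus strand were Ltv1 at chr10:13193092-13193121 and Utp20 at chr10:88826765-88826794. A match is a description of the letters, and no binding was measured in the values used here. Of these 8 genes, Mybbp1a, Utp4 and Ltv1 were called in a comparison below, and Utp20 was too low to test in any experiment.

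Over the 34 libraries the list spanned a wide range of levels. The highest medians belonged to Npm1, which encodes nucleophosmin (424 RPKM), and to Nop10 and Nhp2, small proteins of the box H/ACA particle (282.5 and 219.6 RPKM). The lowest belonged to Rrp12, a small subunit export factor (0.513 RPKM), and Polr1a, the largest subunit of RNA polymerase I (0.603 RPKM). Myc, at chr15:61985391-61990374 (GRCm38, plus strand), had a median of 23.8 RPKM and ran from 3.46 RPKM in a 72 h library with IL-21 to 112 in a trNK-V library. A gene was tested where it exceeded 10 RPKM in both libraries of at least 1 group of the experiment. By this filter 33 of the 38 were tested in the gestation experiment, 29 in the subsets, and 17 each in the inhibitor experiment and the time course. Heatr1, Polr1a, Rrp12 and Utp20 passed it in none. Polr1b, Utp15, Tsr1 and Ddx54 passed in the gestation experiment through 1 group only. So did Fbl, Nolc1, Nop14 and Ltv1 in the inhibitor experiment and Noc4l and Ddx10 in the time course. These genes had to differ to be tested. Counts over all 38 are given beside those over the genes tested in the gestation and subset experiments. They are also given for Stattic against IL-21 and for IL-21 at 6 and 24 h.

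**Figure D1:**
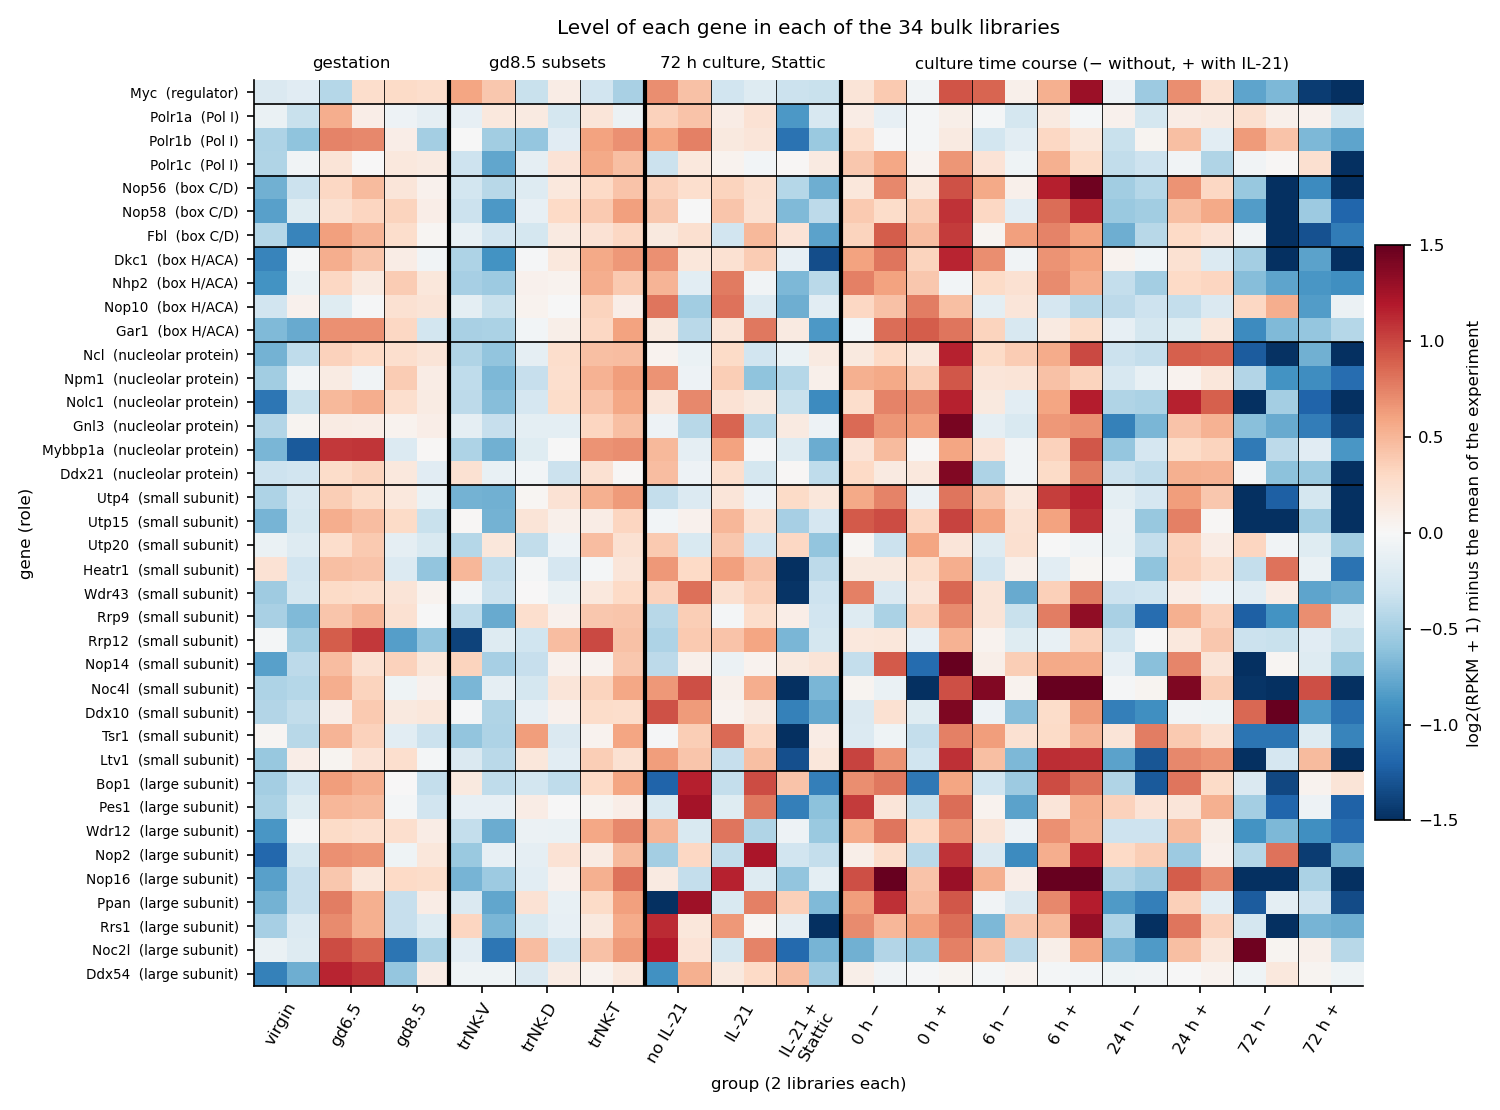
Levels of the 38 genes (rows, grouped by role) in the 34 bulk libraries (columns, grouped by experiment). Colour is log2(RPKM + 1) minus the gene's mean over the libraries of that experiment, from -1.5 to 1.5. The gd6.5 and trNK-T columns are mostly above their experiment's mean, with Myc as an exception in trNK-T.

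Comparing gd6.5 with virgin trNK cells asks whether the assembly genes differ at the start of decidual growth. Of the 33 genes tested, 32 had a higher level at gd6.5, 12 rose (edgeR quasi-likelihood test, Benjamini-Hochberg adjusted p under 0.05 over the 4448 genes tested) and none fell. Among all genes tested, 5.13% rose and 4.36% fell. The median log2 fold change was 0.82 for the list and -0.01 for all genes tested. Both gd6.5 libraries lay above both virgin libraries for 29 of the 33 genes tested, while 36.5% of all genes tested did so in that direction. Of all 38 genes, 34 did so, and none lay below.

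Of the 12, 10 passed the filter through more than 1 group, and Mybbp1a and Gar1 had the largest rises among these. Mybbp1a passed it at gd6.5 and gd8.5 and not in virgin cells, so its call rests in part on the filter. Mybbp1a, a nucleolar protein that binds RNA polymerase I, at chr11:72441355-72451768, was at 10.2 and 6.58 RPKM in virgin cells and 36.8 and 37.1 at gd6.5. The groups did not overlap, and the log2 fold change was 2.05 ± 0.26 (SE, n = 2 per group, edgeR adjusted p = 0.0253). Gar1, of the box H/ACA particle, had 13.0 and 12.1 RPKM in virgin cells against 34.5 in each gd6.5 library, and a log2 fold change of 1.38 ± 0.27 (adjusted p = 0.0365). None of the 12 calls held with edgeR's own filter (filterByExpr). Ddx54 and Polr1b were tested only because their gd6.5 level passed the filter, so their calls were in part fixed by that choice and are given as values. Ddx54, a DEAD-box helicase of the large subunit at chr5:120612739-120628592, was at 2.44 and 3.19 RPKM in virgin cells and 14.4 and 13.6 at gd6.5, while the gd8.5 libraries had 3.65 and 6.53. Its log2 fold change against virgin was 2.23 ± 0.345 (edgeR adjusted p = 0.0282), with an adjusted p of 0.0836 with filterByExpr and of 9.01e-10 with no filter. Polr1b, the subunit of RNA polymerase I second in size, had 4.91 and 4.36 RPKM against 12.6 and 12.4 (1.35 ± 0.29, adjusted p = 0.0396). Its adjusted p was 0.101 with filterByExpr and 0.000521 with no filter.

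Each further group of factors held members that rose. Of the box C/D proteins, Fbl (fibrillarin, the methyltransferase of the particle) rose by 1.21 ± 0.23 on the log2 scale (edgeR adjusted p = 0.0346), from 23.2 and 15.4 RPKM to 49.0 and 45.4. Nop56, a core protein of the same particle, rose by 0.82 ± 0.19 (adjusted p = 0.045), from 60.6 and 80.0 RPKM to 124 and 139.8. Nop58, its partner, did not pass the test. Of the 8 large subunit factors tested, Ppan and Bop1 rose, and Ddx54 had the call that the filter in part fixed. The group median, Ddx54 included, was 0.97. Ppan rose by 1.15 ± 0.26 (adjusted p = 0.0436), from 10.1 and 13.3 RPKM to 29.9 and 25.3. Bop1, which works with Pes1 and Wdr12 in one complex, had 37.9 and 43.8 RPKM in virgin cells and 84.2 and 79.4 at gd6.5. Pes1 did not pass the test, with a mean of 19.5 ± 2.91 RPKM (SD, n = 2) in virgin cells and 35.0 ± 0.522 at gd6.5. Wdr12 was below the filter and not tested, at 5.11 ± 2.46 and 8.60 ± 0.171 RPKM. Of the 6 abundant nucleolar proteins, Mybbp1a, Ncl and Nolc1 rose. Ncl, which encodes nucleolin, rose by 0.79 ± 0.17 (adjusted p = 0.0419), and Nolc1, a chaperone of box C/D and H/ACA particles, by 1.13 ± 0.27 (adjusted p = 0.0499). Rrp9 and Noc4l were the small subunit factors that rose, by 0.98 and 0.82, of 9 tested, and the median of that group, 0.61, was the lowest of the assembly roles.

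Several genes just missed the threshold. Noc2l and Rrs1, large subunit factors with log2 fold changes of 1.02 and 0.92, each had an edgeR adjusted p of 0.0529, and Nop2, an rRNA methyltransferase, had 1.28 with an adjusted p of 0.0539. Nop10 was the gene with a lower fitted level, at -0.08 on the log2 scale (199 and 255 RPKM in virgin, 215 and 241 at gd6.5). Myc itself was at 77.0 and 80.0 RPKM in virgin cells and at 66.5 and 108 at gd6.5. The gd6.5 libraries lay on either side of the virgin ones, with a log2 fold change of 0.07 ± 0.23 (adjusted p = 0.864).

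**Figure D2:**
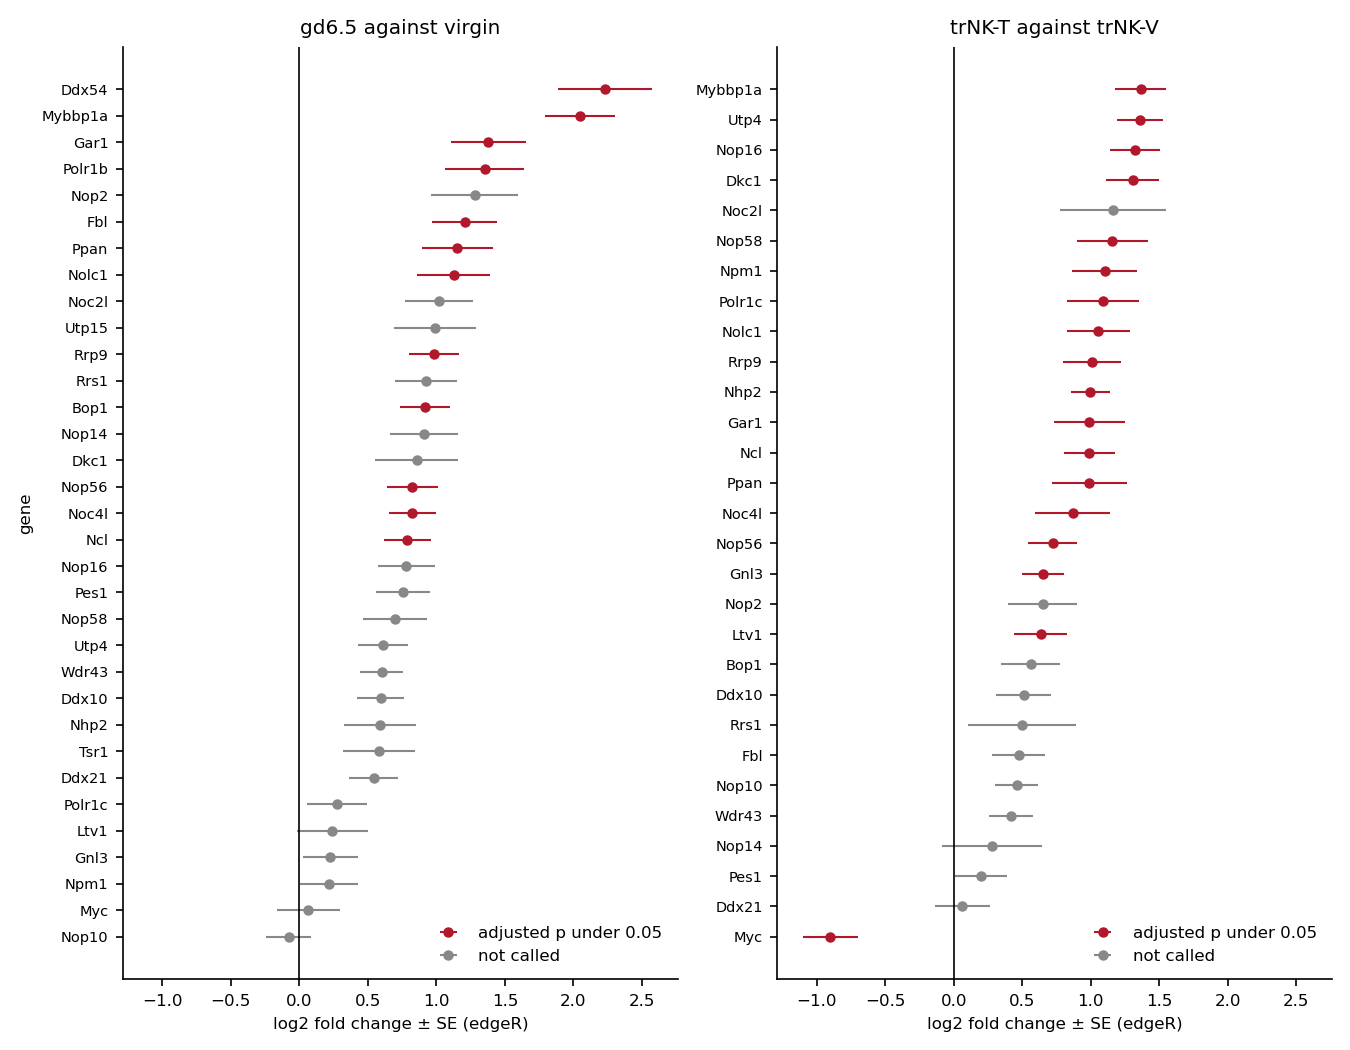
Log2 fold changes (points) with their SE (bars) of the genes tested in gd6.5 against virgin (33 genes) and in trNK-T against trNK-V (29 genes). Red points have an edgeR adjusted p under 0.05. Nearly all points lie right of 0, and Myc is the red point left of 0 in the subset panel.

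The count of 12 depended on single libraries and on the fit, and the shares of all genes called in the other fits are not given. It was 14 without virgin replicate 1, 27 without virgin replicate 2, and 0 without either gd6.5 library, and it was 0 with only the virgin and gd6.5 libraries in the fit. It was also 0 with the replicate number as a block in the fit. With filterByExpr, which keeps more genes, it was 0 too, and the adjusted p of the 12 was 0.0785 (Mybbp1a) at the lowest. Virgin replicate 2, with its higher terminal marker sum, had the higher level of the virgin pair for 27 of the 38 genes. The geometric mean of RPKM + 1 over the 37 assembly genes was 18.3 and 21.3 in virgin cells and went to 37.0 and 35.8 in the gd6.5 libraries. In the gd8.5 libraries it was 27.3 and 25.6. The list took 0.413% and 0.530% of all counts in virgin cells and 0.796% and 0.782% at gd6.5. Division genes moved in the same comparison: 5 of 13 tested rose, with the median at 0.97, led by the replication helicase subunits Mcm5 (1.71) and Mcm2 (1.63). Their summed RPKM was 428 and 620 in virgin cells and 1119 and 1020 at gd6.5. Other markers moved too. Summed interferon genes were 33.8 and 51.9 RPKM in virgin cells and 2.255 and 2.117 at gd6.5. T cell markers were 599 and 468 RPKM against 421 and 280. Endothelial markers were 13.2 and 29.2 RPKM against 44.4 and 36.4, and epithelial markers 2.83 and 27.7 against 32.7 and 30.2. Ncr1 was called lower at gd6.5 (-1.03, edgeR adjusted p = 0.0282). The part of dividing cells and of these other markers in the change of the list was not tested.

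Other lists were counted in the same comparison. Of 80 other ribosome assembly genes tested (109 listed), 6 rose and none fell, and the median was 0.36. The share that rose, 7.5%, was near the 5.13% of all genes tested. The helicase Ddx27 (1.42) and the small subunit factor Tbl3 (1.41) were at the top. Of 24 growth genes often given as Myc targets, 6 rose and none fell, with a median of 0.76, led by the mitochondrial folate enzymes Shmt2 (1.36) and Mthfd2 (1.34). Genes of the ribosome's own proteins went the other way without passing the test. Of 77 tested, 74 had a lower level at gd6.5, none was called in either direction by edgeR, and their median was -0.39.

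At gd8.5 the geometric mean of the list lay between those of virgin and gd6.5 cells. Against virgin, 31 of 33 genes tested were higher and the median stood at 0.45 on the log2 scale, but none was called by edgeR (14 had an unadjusted p under 0.05, DESeq2 called 6 and limma-voom none), where 0.337% of all genes tested were called. Here and below, shares of all genes called are those of the main edgeR fit. The shares called by other methods or fits are not given. The smallest p-values belonged to Ncl (0.71 ± 0.17, adjusted p = 0.189), Nop16 (0.79 ± 0.21, 0.206) and Rrp9 (0.64 ± 0.18, 0.22). Ncl was at 112.0 and 107.6 RPKM against 56.8 and 71.8 in virgin cells, and Nop16, a large subunit factor, at 92.7 and 91.2 against 42.5 and 59.2. Both gd8.5 libraries were above both virgin ones for 24 of the 33 genes tested (25 of all 38), against 28.8% of all genes tested. Myc was at 110.2 and 108.3 RPKM at gd8.5, above both virgin libraries, with a log2 fold change of 0.41 that did not pass the test. The erythroid markers summed to 844.3 RPKM in gd8.5 replicate 2, 223.5 in virgin replicate 2 and at most 12.75 in the other gestation libraries, and their part was not tested. Without virgin replicate 1 edgeR called 2 genes of the list, and without virgin replicate 2 it called 11.

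From gd6.5 to gd8.5, 26 of 33 genes were lower and 7 higher, with a median of -0.31. None was called by edgeR, where 0% of all genes tested were. For the list, 10 genes had an unadjusted p under 0.05, DESeq2 called 7 and limma-voom none, and edgeR with only these groups in the fit called 11. The 0% is not the share of those other fits. Both gd8.5 libraries lay below both gd6.5 libraries for 23 of the 33 genes tested (27 of all 38), where 35.7% of all genes tested did so. Nop10 and Myc were the only tested genes in the list with both gd8.5 libraries above both gd6.5 libraries. The smallest p-values were those of Noc2l (-1.73 ± 0.25, edgeR adjusted p = 0.0891), Mybbp1a (-1.19 ± 0.25, 0.0946) and Ddx54 (-1.44, 0.102). Noc2l, which acts in the transport of pre-60S particles, went from 48.9 and 45.2 RPKM to 10.8 and 17.1, below its virgin levels of 22.6 and 21.1. The comparisons of gd6.5 with virgin and with gd8.5 share the gd6.5 libraries.

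**Figure D3:**
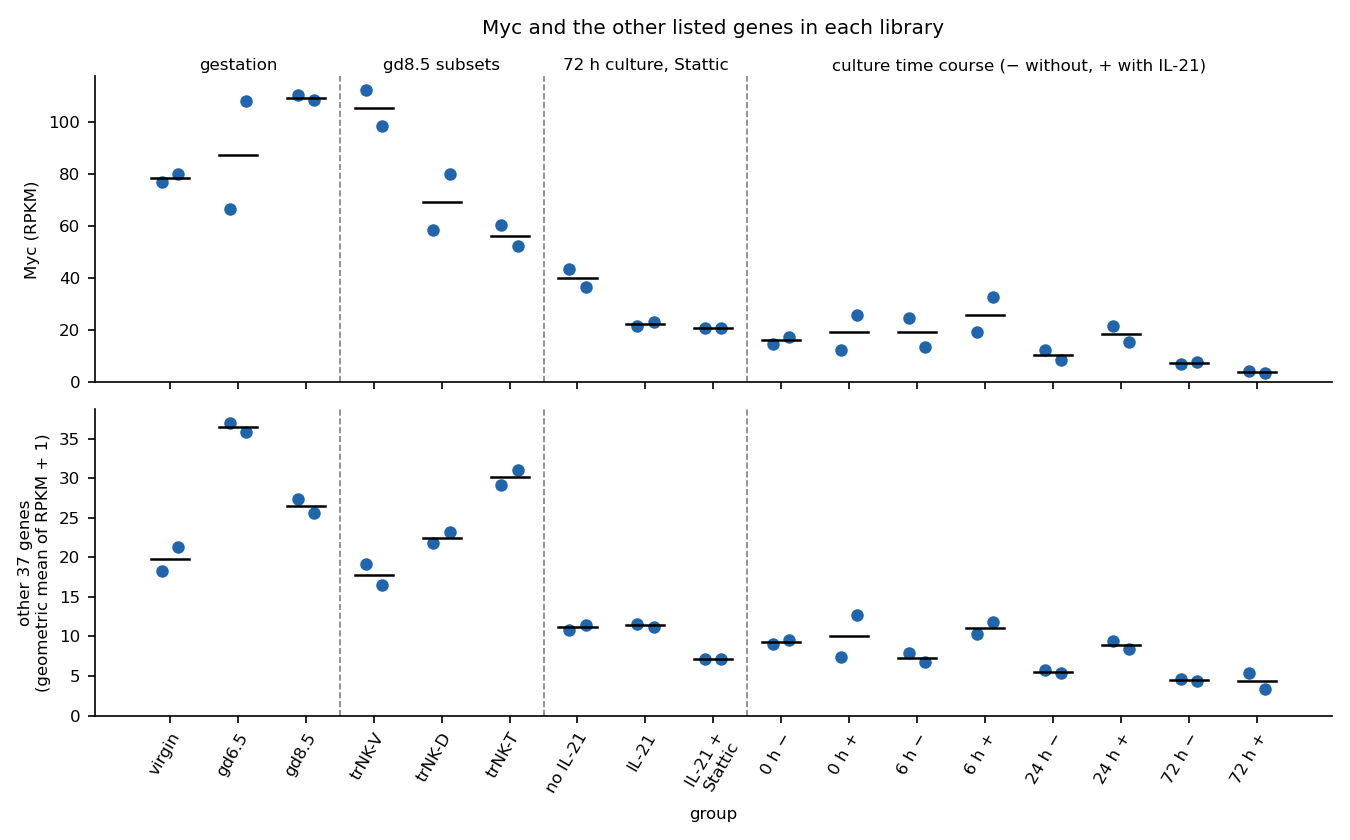
Myc (top, RPKM) and the geometric mean of RPKM + 1 over the 37 other genes (bottom) in each of the 17 bulk groups. Points are libraries and bars are means of the 2 libraries. From trNK-V to trNK-T the assembly genes go from 19.1 and 16.5 to 29.1 and 31.0, while Myc goes from 112 and 98.5 RPKM to 60.2 and 52.5.

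The subset comparison held the widest separation of Myc from the assembly genes. Between trNK-T and trNK-V cells of gd8.5, 28 of 29 genes tested were higher in trNK-T, 17 were called higher by edgeR, and 1, Myc, was called lower. Of all 4631 genes tested, 15.2% were called higher and 19.6% lower. The median log2 fold change was 0.87 for the list and -0.02 for all genes tested. Both trNK-T libraries lay above both trNK-V libraries for 25 of the 29 genes tested (32 of all 38), against 36.6% of all genes tested. Myc was the only gene of the 38 with both below. The median of the list stayed above 0 under every alternative tried.

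Myc had 112 and 98.5 RPKM in trNK-V, 58.6 and 80.0 in trNK-D, and 60.2 and 52.5 in trNK-T. The trNK-V values lay above those of both other subsets, while trNK-D and trNK-T overlapped. Its log2 fold change from trNK-V to trNK-T was -0.90 ± 0.20 (edgeR adjusted p = 0.0182), the adjusted p was 0.0534 to 0.114 with any 1 library left out, and the direction stayed the same. The neighbouring steps were smaller, since trNK-D against trNK-V gave -0.59 ± 0.20 (adjusted p = 0.199) and trNK-T against trNK-D -0.31, neither of them called. Of 3 genes of the Myc network tested, 2 fell in trNK-T, Mxd1 (-3.64) and Mxd4 (-2.27), which encode proteins that compete with Myc for the partner Max.

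The assembly genes ran the opposite way, and the median of every role but the regulator was above 0. Utp4, a protein of the small subunit processome, at chr8:106893636-106923088, was at 16.11 and 16.03 RPKM in trNK-V, 27.7 and 31.5 in trNK-D, and 39.6 and 42.8 in trNK-T. The 3 subsets did not overlap, and the log2 fold change from trNK-V to trNK-T was 1.36 ± 0.17 (edgeR adjusted p = 0.00397). Mybbp1a was at 10.1 and 8.26 RPKM in trNK-V, 12.5 and 14.2 in trNK-D, and 23.4 and 23.7 in trNK-T, a log2 fold change of 1.36 ± 0.19 (adjusted p = 0.00484). Nop16 was at 37.6 and 41.8 RPKM, then 55.1 and 64.5, then 89.6 and 109.1, a log2 fold change of 1.32 ± 0.19 (adjusted p = 0.00504). These genes thus had trNK-D between the other subsets. So did Dkc1, the pseudouridine synthase of the box H/ACA particle, with 36.1 and 26.5 RPKM in trNK-V, 49.8 and 56.1 in trNK-D and 75.1 and 79.3 in trNK-T (1.30 ± 0.19, adjusted p = 0.0054). Nop58 had 12.3 and 8.10 RPKM in trNK-V and 20.8 and 24.5 in trNK-T (1.16 ± 0.26, adjusted p = 0.0174). Mybbp1a, Nop58 and Ppan, all called higher, passed the filter through trNK-D and trNK-T only. Their calls thus rest in part on the filter. Npm1 rose by 1.10 ± 0.23 (adjusted p = 0.0158), from 265 and 217 RPKM to 498 and 535, and it shares sequence with pseudogenes, so that its count is less certain.

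By role, 5 of 6 nucleolar proteins rose (group median 1.02), Ddx21 being the one that did not. Of the box H/ACA proteins, 3 of 4 rose (median 0.99), Nop10 being the other. Of the box C/D proteins 2 of 3 rose, Fbl being the other. Of the small subunit factors 4 of 7 rose (0.64), of the large subunit factors 2 of 7 (0.65), and Polr1c, a subunit shared by RNA polymerases I and III, rose by 1.09 ± 0.26 (edgeR adjusted p = 0.0221). Ddx21, an RNA helicase of the nucleolus, had the smallest difference of all, 0.06 on the log2 scale, with 21.96 and 17.18 RPKM in trNK-V and 21.98 and 18.78 in trNK-T. The count of 18 calls was 15 without trNK-V replicate 1, 5 without trNK-V replicate 2, 9 without trNK-T replicate 1 and 5 without trNK-T replicate 2.

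Between neighbouring subsets edgeR called none of the list. For trNK-D against trNK-V, 24 of 29 were higher with a median of 0.40, 10 had an unadjusted p under 0.05, DESeq2 called 5 and limma-voom none, and 0.324% of all genes tested were called. The smallest p-values were those of Utp4 (0.89 ± 0.17, adjusted p = 0.0964), Nhp2 (0.59 ± 0.14, 0.129) and Dkc1 (0.77 ± 0.19, 0.131). For trNK-T against trNK-D, 28 of 29 were higher with a median of 0.41, 8 had an unadjusted p under 0.05, DESeq2 again called 5 and limma-voom none, and 1.84% of all genes tested were called. Here Mybbp1a (0.81 ± 0.18, adjusted p = 0.0807), Nop16 (0.72 ± 0.18, 0.0889) and Bop1 (0.79 ± 0.22, 0.105) came first. Libraries did not overlap and were higher in trNK-D than in trNK-V for 17 of the 29 genes tested (20 of all 38), against 26.1% of all genes tested. In trNK-T against trNK-D this held for 24 of the 29 (27 of all 38), against 29.5% of all genes tested.

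Other lists were counted in the same subset comparison, in which 15.2% of all genes tested rose and 19.6% fell. Of 24 growth genes, 19 rose and 1 fell in trNK-T, with a median of 1.16, led by the folate enzyme Mthfd2 (2.68) and Srm, the spermidine synthase (2.35). Of 69 other assembly genes tested, 17 rose and 5 fell, with a median of 0.35. Of 77 ribosomal protein genes, 11 rose and 2 fell, with a median of 0.20, and their share that rose, 14.3%, was near that of all genes. None of 13 division genes was called by edgeR, with a median of 0.85. The early-response and heat-shock genes that are known to respond to cell preparation fell in all 7 of the cases tested, with a median of -3.32, and their summed RPKM was 1366 and 2713 in trNK-V, 634 and 595 in trNK-D and 300 and 166 in trNK-T. Myc is itself an early-response gene, and the part of cell preparation in its difference was not tested. Markers of other cells moved too. The summed T cell markers were 531 and 572 RPKM in trNK-V and 381 and 237 in trNK-T, and 3 of 4 tested fell. The gamma delta T cell gene Trdc fell by 2.20 on the log2 scale. Epithelial markers summed to 9.57 and 6.24 RPKM in trNK-V and to 49.6 and 53.9 in trNK-T, and Epcam rose by 2.94. Endothelial markers summed to 20.96 and 19.56 RPKM against 47.2 and 49.9, and Pecam1 rose by 1.23. The part of these cells in the difference of the list was not tested. The gate used CD55 and 4-1BB, and the 6 terminal trNK markers tested, among them the genes of both proteins, all rose.

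The 12 genes that rose at gd6.5 and the 17 that rose in trNK-T had 8 in common, which are 66.7% of the first set and 47.1% of the second. They were Gar1, Mybbp1a, Ncl, Noc4l, Nolc1, Nop56, Ppan and Rrp9. These comparisons came from separate experiments with no shared library. Of the list, 10 of the 12 were tested in the subsets, and the 8 are 80% of these. Among all genes, 94 of the 201 that rose at gd6.5 and were tested in the subsets also rose in trNK-T, or 46.8%. However, 58.6% of the list rose in trNK-T whatever its call at gd6.5, so the overlap is given as a description. Bop1 and Fbl were called at gd6.5 and not in trNK-T, Polr1b and Ddx54 were too low to test in the subsets, and the difference between the comparisons was not tested.

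In the inhibitor experiment the question was whether IL-21, and STAT3 activity under it, moved the same genes. After 3 days with IL-21, 10 of the 17 genes tested were higher and 7 lower than without it, with a median of 0.12. The direction rested on 1 library, since without replicate 1 of the IL-21 libraries the median was -0.11, with 8 higher and 9 lower. None was called by edgeR, none had an unadjusted p under 0.05, DESeq2 and limma-voom called none, and 0.293% of all genes tested were called. Myc was at 43.5 and 36.4 RPKM without IL-21 and at 21.6 and 23.1 with it. The libraries did not overlap, but the difference of -0.66 ± 0.33 did not pass the test (edgeR adjusted p = 0.641). Nop16 (0.96 ± 0.56, adjusted p = 0.727) and Utp4 (0.55 ± 0.34, 0.748) had the next smallest p-values. Utp4 was at 15.1 and 16.8 RPKM without and at 22.2 and 18.6 with IL-21.

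With Stattic added to IL-21, 12 of 17 genes were lower and 5 higher than with IL-21 alone, with a median of -0.73. Without replicate 1 of the IL-21 libraries the median was -0.33, with 10 lower and 7 higher. None was called by edgeR (3 had an unadjusted p under 0.05, DESeq2 called 1 and limma-voom none), where 3% of all genes tested were called. Both Stattic libraries lay below both IL-21 libraries for 8 of the 17 genes tested (20 of all 38), against 28.9% of all genes tested. Noc4l, a small subunit factor, was at 19.0 and 26.6 RPKM with IL-21 and at 5.49 and 10.7 with Stattic (-1.38 ± 0.45, edgeR adjusted p = 0.155). Ddx10, a helicase of the small subunit, was at 15.8 and 16.8 RPKM with IL-21 and at 7.06 and 8.54 with Stattic (-0.96 ± 0.37, adjusted p = 0.21). Nop56 was at 27.8 and 26.0 against 15.9 and 12.7 RPKM (-0.81 ± 0.32, adjusted p = 0.223). For each of these genes the groups did not overlap. Myc was at 21.05 and 20.78 RPKM with Stattic, next to its IL-21 levels (0.01 ± 0.32, adjusted p = 0.992).

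Against cells without IL-21, Stattic with IL-21 gave 12 lower and 5 higher genes with a median of -0.47, which was -0.22 without replicate 1 of the libraries with neither and -0.29 without Stattic replicate 1. None was called by edgeR, 4 had an unadjusted p under 0.05, DESeq2 called 2 and limma-voom 1, and 4.81% of all genes tested were called. Ddx10, at 30.5 and 24.2 RPKM without IL-21, had -1.52 ± 0.37 (edgeR adjusted p = 0.0615), and Noc4l, at 28.7 and 36.0, had -1.71 ± 0.46 (0.0783). Utp4 was the next by p and lay higher, at 24.1 and 22.1 RPKM with Stattic (0.82 ± 0.34, 0.209). Myc had a log2 fold change of -0.65 (0.283). Beside these values, the summed RPKM of the stress genes was 1630 and 1397 with Stattic, 126 and 317 with IL-21, and 77.2 and 186 with neither, and 3 of 7 of them rose from IL-21 to Stattic, led by Hspa1a (9.64) and Hspa1b (8.78). The list took 0.195% and 0.217% of counts with Stattic and 0.321% and 0.238% with IL-21. The part of stress in the lower levels was not tested. The last 2 comparisons share the Stattic libraries.

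In the time course Myc was at its lowest at 72 h, a difference from 0 h that was not tested. Without IL-21 it was at 14.9 and 17.3 RPKM at 0 h, 24.5 and 13.8 at 6 h, 12.2 and 8.55 at 24 h, and 7.03 and 7.75 at 72 h. With IL-21 it was at 12.5 and 25.9, 19.2 and 32.8, 21.7 and 15.3, and 4.20 and 3.46 RPKM at the same times. At 0 and 6 h the groups with and without IL-21 overlapped, at 24 h both IL-21 libraries were higher, and at 72 h both were lower. No IL-21 difference of Myc passed the test: the log2 fold changes were 0.30 at 0 h, 0.42 ± 0.43 at 6 h (edgeR adjusted p = 0.851), 0.73 ± 0.43 at 24 h (0.498) and -1.04 ± 0.44 at 72 h (0.167).

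The assembly genes were higher with IL-21 at 6 and 24 h by their medians, with few calls in the main fit. With only the groups compared in the fit, more of the list was called at both times. At 0 h, 11 of 17 tested were higher and 6 lower, with a median of 0.19 (-0.13 without replicate 2 of the IL-21 libraries), none was called by edgeR, DESeq2 or limma-voom or had an unadjusted p under 0.05, and 0% of all genes tested were called. Ncl (0.58), Nop58 (0.51) and Nhp2 (-0.39) had the smallest p-values, each with an edgeR adjusted p of 1. At 6 h, 16 of 17 were higher with a median of 0.80, against -0.02 for all genes tested, and the median was 0.49 without replicate 2 of the libraries lacking IL-21. None was called by edgeR (4 had an unadjusted p under 0.05, DESeq2 called 2 and limma-voom none), where 2.22% of all genes tested were. Libraries were apart and higher for 14 of the 17 genes tested (26 of all 38), against 30.2% of all genes tested. Gnl3, which encodes nucleostemin, had 0.86 ± 0.24 (edgeR adjusted p = 0.114), Nop58 0.92 ± 0.28 (0.151) and Nop56 0.97 ± 0.40 (0.339). Nop56 was at 32.9 and 23.1 RPKM without IL-21 and at 49.9 and 61.5 with it. The NK cell genes Klrb1c (-1.54, edgeR adjusted p = 0.00153) and Ncr1 (-1.02, 0.00597) were called lower with IL-21 at 6 h. Klrb1c was also called lower at 24 h (-1.305, 0.00374). Their part in the values of the list was not tested.

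At 24 h, 15 of 17 were higher with IL-21, with a median of 0.73, and 1, Gnl3, was called higher, where 0.374% of all genes tested were. Gnl3, at chr14:31012433-31019152, was at 7.42 and 9.61 RPKM without IL-21 and at 21.9 and 23.5 with it (1.31 ± 0.24, edgeR adjusted p = 0.0208). The call was lost with any 1 of the 24 h libraries left out, with limma-voom (adjusted p = 0.0524), with filterByExpr (0.115) and with no filter on low counts (0.292). Ncl followed with 22.7 and 22.1 RPKM without and 54.4 and 53.3 with IL-21, and did not pass the test (1.16, adjusted p = 0.0534). Libraries were apart and higher for 14 of the 17 genes tested (30 of all 38), where 39.9% of all genes tested were. The summed division genes were 1363 and 1290 RPKM without and 1412 and 1279 with IL-21 at 24 h. Of 20 growth genes tested, 2 rose, Hspe1 (1.25) and Nme1 (0.74), with a median of 0.85, and of 43 other assembly genes 1 rose, Pno1 (1.14).

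At 72 h most of the genes tested had a lower level with IL-21. Of 17, 11 were lower and 6 higher, with a median of -0.41, and 1 was called lower, Ddx10, where 2.04% of all genes tested were. Without replicate 2 of the 72 h libraries with IL-21 the median was -0.17. Ddx10, at chr9:53098635-53248053, was at 12.6 and 23.9 RPKM without IL-21 and at 3.11 and 2.43 with it, from 1128 and 3115 counts and 356 and 217 counts. Its log2 fold change was -2.85 ± 0.58 (edgeR adjusted p = 0.0123), and it was not called with only the groups compared in the fit or without replicate 1 of the 72 h libraries with IL-21 (adjusted p = 0.0557). Ddx10 was tested only because its 72 h level without IL-21 passed the filter, so the call rests in part on that choice. The adjusted p was 0.0102 with filterByExpr and 0.00259 with no filter. The gene that overlaps it on the other strand, Gm47986, had 0 counts in all 16 libraries. At 24 h Ddx10 had gone the other way, with 2.69 and 2.94 RPKM without IL-21 and 6.21 and 6.16 with it. Noc4l shows how low some levels were: 1.16 and 0 RPKM without IL-21 and 10.7 and 0 with it (3.05 ± 2.22, adjusted p = 0.431). Division genes were 87.9 and 39.6 RPKM in sum without IL-21 and 289 and 166 with it at 72 h, and 6 of 10 tested rose. The 72 h libraries without IL-21 were also those with the high mitochondrial share, with 10724 and 11665 genes detected, and 5 of the 38 genes were at 0 in each. In the 72 h libraries with IL-21, none of the 38 was at 0 in replicate 1 and 6 were in replicate 2, which had 12000 genes detected. The part of cell state in these values was not tested.

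The difference between the IL-21 effects at 72 h and at 6 h was itself tested as an interaction. Of 17 genes, 15 had a lower effect at 72 h, with a median of -0.61 (-1.27 without replicate 1 of the 72 h libraries with IL-21) against 0.14 for all genes tested, and 2 passed the test, where 0.605% of all genes tested did in that direction. These were Ddx10 (-3.74 ± 0.79, edgeR adjusted p = 0.0217), with the same limit from the filter, and Gnl3 (-1.51 ± 0.34, 0.0286). Gnl3 had 14.6 and 13.6 RPKM at 6 h without and 25.8 and 26.4 with IL-21, and 10.00 and 9.10 without and 7.29 and 5.58 with it at 72 h. Gnl3 overlaps Pbrm1 on the other strand, and strand use in counting was not given in the sources used here. Pbrm1 was at 5.64 and 4.94 RPKM at 6 h without and 5.51 and 6.08 with IL-21. At 72 h it was at 4.32 and 11.5 without and 9.78 and 2.57 with IL-21, a wide spread at the level of Gnl3 itself, and its part in the counts was not tested. Myc had -1.46 (adjusted p = 0.226). The count of 2 was 0 without any 1 of the 6 h libraries and 5 without replicate 1 of the 72 h libraries lacking IL-21.

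**Figure D4:**
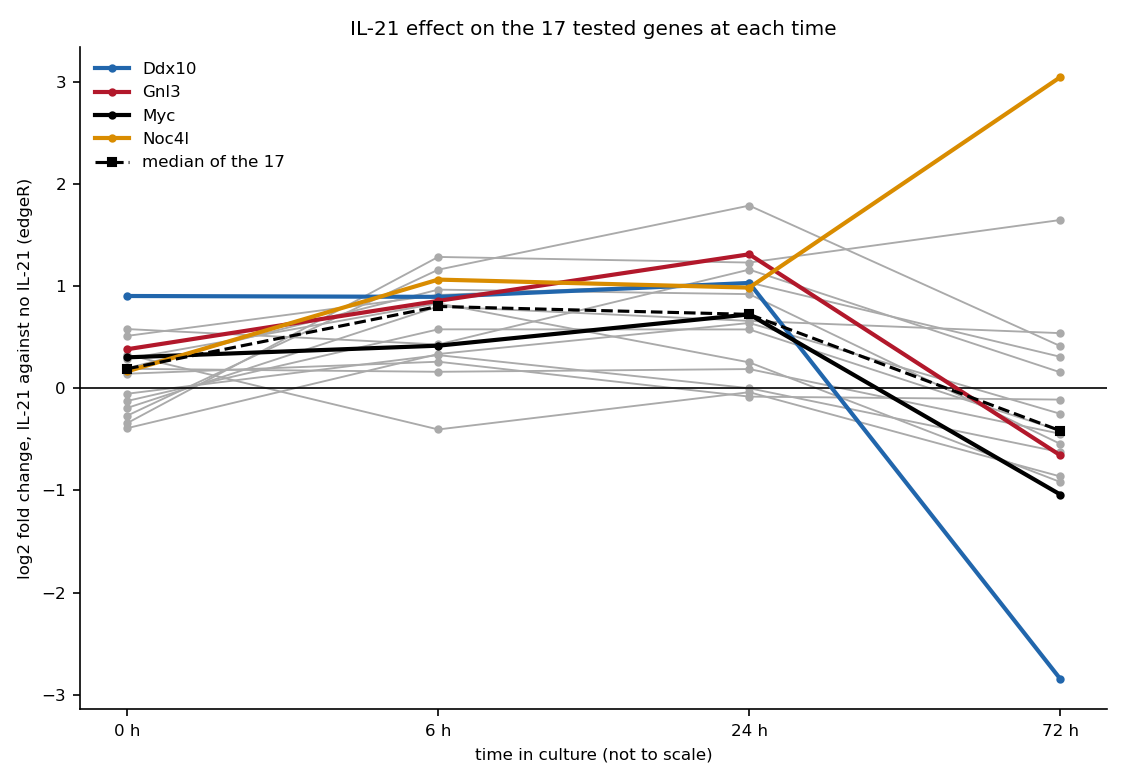
Log2 fold change with IL-21 against without it at 0, 6, 24 and 72 h for the 17 genes tested in the time course (lines), with Ddx10, Gnl3, Myc, Noc4l and the median drawn apart. The median goes from 0.19 at 0 h to 0.80, 0.73 and -0.41.

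Without IL-21 the assembly genes went down over the first day without passing the test. From 0 to 6 h, 14 of 17 were lower with a median of -0.45, none was called by edgeR (4 had an unadjusted p under 0.05, DESeq2 called 1 and limma-voom none), and 0% of all genes tested were called. Gnl3 (-1.04 ± 0.24, edgeR adjusted p = 0.76), Wdr12 (-0.74 ± 0.24, 0.998) and Npm1 (-0.42 ± 0.17, 0.998) came first by p. From 6 to 24 h, 16 of 17 were lower with a median of -0.56 (-0.34 without replicate 1 of the 6 h libraries), none was called by edgeR (2 had an unadjusted p under 0.05, DESeq2 and limma-voom called none), and 0.0864% of all genes tested were called. Nhp2 (-0.56 ± 0.21, 0.809), Gnl3 (-0.59 ± 0.24, 0.809) and Ncl (-0.57 ± 0.26, 0.867) came first. From 24 to 72 h, 10 were lower and 7 higher with a median of -0.14, which turned to 0.06 (9 higher and 8 lower) without replicate 1 of the 72 h libraries. Here 2 were called higher, where 6.48% of all genes tested were. These were Nop10 (1.14 ± 0.34, adjusted p = 0.0384) and Ddx10 (3.09 ± 0.59, 0.00523), which had passed the filter only through its 72 h level without IL-21. With filterByExpr the adjusted p of Ddx10 was 0.0061. This step, the IL-21 effect at 72 h and the interaction share the 72 h libraries without IL-21. The calls of Ddx10 in them are thus not separate. Nop10 was at 625 and 662 RPKM at 24 h and at 1016 and 1190 at 72 h, without overlap. All 10 division genes tested fell in that step, with a median of -6.09. The count of 2 was 0 without either 24 h library lacking IL-21, and 4 and 1 without replicate 1 and 2 of the 72 h libraries lacking it.

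Single cells gave the same genes cell by cell, from live CD45+ NK1.1+ NKp46+ uterine cells. The tables labelled virgin and gd8.5 listed the same 15175 cells and shared no gene, and the cells' log UMI totals in them had a Pearson r of 0.981, so they were joined as the 2 parts of 1 matrix that holds both conditions, and conditions could not be compared. Of the 15175 cells, 8907 had 200 to 2500 genes and under 10% mitochondrial UMIs, and they formed 18 clusters. The study's methods state these limits for UMI counts per cell, and applied to UMIs they kept 4338 cells, in which no dividing class formed. Levels are UMI counts of a gene over the summed UMIs of a cluster, scaled to CPM, with exact 95% Poisson intervals that cover counting error only. The genes of the list and the other assembly genes were left out of the variable genes used for clustering. The cells form 1 pooled sample, so the levels are a description with no test. Nop58, Nhp2, Wdr12 and Mybbp1a were not analysed in single cells.

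Myc and the summed other 33 genes ran in opposite orders over the 4 trNK-like clusters outside division, clusters 1, 3, 0 and 5. Cluster 1 (1114 cells, median 2350.5 UMIs) was led by Cd7 and Klra4, cluster 3 (1021 cells, 2834 UMIs) by Cd7 and Crtam, cluster 0 (1168 cells, 5001.5 UMIs) by the granzyme genes Gzmc and Gzmf, and cluster 5 (688 cells, 5713.5 UMIs) by the metallothionein gene Mt2 and by Scin. Myc was at 163 CPM in cluster 1, 123 in cluster 3, 103 in cluster 0 and 70.9 in cluster 5. The other 33 genes summed to 4290, 4984, 5975 and 6965 CPM in the same order. Cluster 2, which was cNK-like (1021 cells), had 59.8 CPM of Myc and 3595 of the others, both below the values of the 4 trNK-like clusters. Cells of other types in the same matrix had Myc at 179 CPM (B-like), 91.3 (T-like), 91.6 (stromal-like) and 54.1 (macrophage-like), so Myc UMIs were not limited to NK cells. Depth differed between the clusters, and cluster 5 had a median mitochondrial share of 0.102%. Without the upper limit on genes per cell 13076 cells were kept. The trNK-like cells outside division then numbered 6898, against 3991 with the limit. The order over the clusters was not computed again there.

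Npm1 went from 1186 CPM in cluster 1 to 1520 in cluster 3, 1985 in cluster 0 and 2732 in cluster 5. Nop16 went from 25.5 to 44.5, 64.4 and 84.7 CPM, and Nop10 from 203 to 250.4, 343 and 489 CPM. Most of the 33 genes did not rise at each step. Those that did were Bop1, Dkc1, Fbl, Gar1, Ncl, Nolc1, Nop10, Nop16, Npm1, Pes1, Rrp9 and Rrs1. Npm1 held 1186 of the 4290 CPM of the sum in cluster 1 and 2732 of the 6965 in cluster 5. The rise of the sum thus leans on Npm1. Ddx21 was at 224, 237, 226 and 228 CPM, and Nop56 at 215, 197, 219.6 and 162 CPM, the lowest in cluster 5. Of the 33 genes, 27 were higher in cluster 5 than in cluster 1, 15 of them with intervals apart, and 6 lower, with Nop56 the one whose intervals were apart. Among all genes with at least as many UMIs in both clusters together as the least counted gene of the list, 40.9% were higher in cluster 5, 25.7% with intervals apart, and 43.1% were lower with intervals apart. Between cluster 0 and cluster 1 all 33 were higher in cluster 0, 15 with intervals apart, where 38.6% of all genes chosen in the same way were higher, 19.5% with intervals apart. Ribosomal protein genes summed to 141446 CPM in cluster 1 and 192870 in cluster 5, growth genes to 3666 and 6554, and stress genes to 9744 and 502. The part of stress in the Myc order was not tested.

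Cluster 6 held dividing trNK-like cells (512 cells, median 4840.5 UMIs). The 33 genes summed to 7037 CPM there and to 5684 in the other trNK-like clusters, a ratio of 1.24 with a 95% interval of 1.22 to 1.26. The dividing class held 1375 cells without the upper limit on genes per cell, and the ratio then lay above this interval. Myc was at 99.5 CPM in cluster 6, against 70.9 in cluster 5, and the sum differed from that of cluster 5 by less than the counting intervals. Npm1 alone gave 2732 of the 6965 CPM in cluster 5 and 2401 of the 7037 CPM in cluster 6, so the sum leans on 1 gene. The Myc ratio to the other clusters of 0.896 had an interval of 0.778 to 1.03, which includes 1. Nop56 (1.47), Ncl (1.41), Gar1 (1.33), Nolc1 (1.32) and Noc4l (1.30) had the highest ratios of the 34 genes. Of all 34 genes, 25 had a ratio above 1, 11 with the interval above 1, and none had an interval below 1. Of all genes with at least the UMIs of the least counted gene of the list, 47.1% had a ratio above 1, 23.3% had the interval above 1 and 24.4% below it. For scale, other assembly genes had a ratio of 1.12, growth genes 1.27, ribosomal protein genes 0.912 and division genes, which define the cluster, 6.60.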

How the data were processed

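The authors deposited counts per gene for each bulk library and UMI counts per cell. Per the labels, the sequencing was aligned to mm10, with HISAT2 2.1.0, featureCounts and Subread among the tools, whereas the study's methods name RSEM. The labels give both 10 and 15 ng/ml for IL-15 in the time course, and their µM unit of Stattic differs from that printed in the methods. Single-cell counts came from a BD Rhapsody run, no doublet caller was applied here, and the study's limits of 200 and 2500, stated for UMIs per cell, were applied here to genes per cell (alternative: to UMIs). ATAC-Seq samples were not analysed here.

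From the counts, RPKM was computed, and a gene was tested if any group had both libraries over 10 RPKM. Each experiment was fitted with all its groups by edgeR 4.0.16 (TMM, quasi-likelihood test, R 4.3.3), with p-values adjusted by Benjamini-Hochberg over all genes tested, a call at an adjusted p under 0.05 and SE taken as the log2 fold change over the root of F. The script was tested on simulated data. Alternatives were DESeq2 1.42.0, limma-voom (limma 3.58.1), RLE scaling, other filters, a 2-fold limit, only the groups compared, a replicate block and leaving out each library. Cells were clustered with scanpy 1.11.5 and leidenalg 0.10.2 (2000 variable genes, 20 components, 20 neighbours, resolution 0.8).

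In each comparison up to 6 called members a direction with the largest fold change are named, or, with none called, the 3 with the smallest p, and of other lists the 2 largest. Further genes beside them, the counts of libraries that do not overlap and the limits that named clusters were chosen after values were seen. The members and lists were chosen with earlier results of these data known. Virgin replicate 1 lists 55573 genes and the other libraries 54446. The 54353 shared genes hold 99.897% of its counts. Of the list, 16 genes overlap a gene on the other strand.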

Additional observations from a re-analysis of the deposited data

Results flagged for a closer look

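The IL-21 effect differed between 72 h and 6 h for Ddx10 and Gnl3 by a test of that difference. The log2 fold change with IL-21 at 72 h minus that at 6 h was -3.744 for Ddx10 and -1.513 for Gnl3 (edgeR adjusted p = 0.0217 and 0.0286, n = 2 per group). Both lost the call without any 1 of the 6 h libraries and with only the groups compared in the fit (adjusted p = 0.138 for Ddx10 and 0.178 for Gnl3). Gnl3 also lost it with limma-voom (0.0571) and with no filter on low counts (0.166). Ddx10 was tested only because its 72 h level without IL-21 passed the filter on low values, so its value was in part fixed by that choice. Its adjusted p was 0.0177 with filterByExpr and 0.00719 with no filter.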

How the results depend on the processing

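The median log2 fold change of the list kept its direction in gd6.5 against virgin (0.642 to 0.969) and in trNK-T against trNK-V (0.742 to 0.984) under every alternative, while counts of calls moved. Medians of other comparisons turned with 1 library left out, to -0.108 for IL-21 in the inhibitor culture, -0.131 for IL-21 at 0 h and 0.0595 for 72 h against 24 h. For gd6.5 against virgin (12 called), 7 were over 2-fold, DESeq2 gave 23, no filter 20, and filterByExpr and only the groups compared 0. For trNK-T against trNK-V (18), 9 were over 2-fold, and Myc was at -0.72 (adjusted p = 0.0918) under filterByExpr. DESeq2 gave 7 for gd8.5 against gd6.5, 6 for gd8.5 against virgin, 5 for trNK-D against trNK-V, 5 for trNK-T against trNK-D, 1 for Stattic against IL-21, 2 for Stattic against neither, 1 for 6 h against 0 h, and with IL-21 2 at 6 h, 4 at 24 h and 3 at 72 h. No filter gave 5, 3, 4 and 5 in the first 4 of these, 1 for Stattic against neither, 0 for IL-21 at 24 h, 7 at 72 h, 7 for 72 h against 24 h and 4 for the interaction. With only the groups compared, counts were 11 for gd8.5 against gd6.5, 6, 8 and 0 for IL-21 at 6, 24 and 72 h, 0 for 72 h against 24 h and 0 for the interaction. FilterByExpr gave 0 for IL-21 at 24 h, 4 at 72 h and 4 for 72 h against 24 h, and limma-voom gave 1 for Stattic against neither, 0 for IL-21 at 24 h and 1 for the interaction. These counts, and those with a library left out, are given without the shares of all genes called in the same fits. They thus do not set the list apart from other genes. The cause was not tested.

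With any 1 library left out, counts ranged from 0 to 27 for gd6.5 against virgin, 0 to 11 for gd8.5 against virgin, 5 to 15 for trNK-T against trNK-V, 0 to 0 for IL-21 at 24 h, 1 to 2 at 72 h, 0 to 4 for 72 h against 24 h and 0 to 5 for the interaction. The log2 fold change of Myc changed sign in 6 such fits, with ranges of -0.22 to 0.50 (6 h against 0 h), -0.37 to 0.145 (72 h against 24 h, also 0.07), -0.32 to 0.37 (gd6.5 against virgin), -0.17 to 0.68 (IL-21 at 0 h) and -0.045 to 0.77 (IL-21 at 6 h), and for Stattic against IL-21 it was -0.0003211 with DESeq2 and -0.0003416 with RLE. Without the upper limit on genes per cell the dividing ratio of the 33 genes was 1.29, and with the limits set on UMIs no dividing class formed.

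Replicate numbers are shared between groups, but nothing in the labels pairs the samples, and the correlation of same-numbered deviations ran from -0.431 to 0.541. With the replicate block, 0 genes were called for gd6.5 against virgin and 20 for trNK-T against trNK-V. The time course was sequenced deepest, and there as in the inhibitor experiment 21 of the 38 genes were under the filter on RPKM, a unit scaled for depth.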
